A study of Homo sapiens with 4 samples.

Results

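Metallothioneins, their transcription factor MTF1 and the 2 families of zinc transporters were examined in COLO205 cells treated with nonylphenol (NP). The members were chosen by gene name: 11 metallothionein genes, MTF1, the 10 genes of the SLC30A family and the 14 genes of the SLC39A family. All 36 were present among the 19970 genes of the table. The COLO205 line derives from a human colon adenocarcinoma. NP, an alkylphenol used to make surfactants, is known as a weak estrogen. The NP group received NP at 1 µM for 24 h, and the control group was kept without NP for the same time, with 2 samples sequenced per group. The study dissolved NP in DMSO, and its sequencing method names no vehicle for the control samples. The study examined which transcripts NP exposure changes in colorectal cancer cells. All samples came from 1 cell line, and the study's methods mention parallel experiments for each treatment without tying the sequenced samples to separate cultures, so each p-value covers no more than the variation among these 4 libraries, and part of that may be technical.

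Metallothioneins are small cysteine-rich proteins that bind zinc, copper and cadmium in clusters of metal and thiolate. When free zinc rises, the zinc finger protein MTF1 binds metal response elements in the promoters of metallothionein genes and of SLC30A1 and raises their transcription. The SLC30A proteins (ZnT) carry zinc out of the cytosol, either across the plasma membrane or into organelles, and the SLC39A proteins (ZIP) carry it into the cytosol. In the gut, ZIP and ZnT transporters of the enterocyte take up dietary zinc, and metallothionein buffers it in the cell.

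Total counts per sample were 13401691 to 16998129. Replicates varied beyond counting error: the chi-square statistic averaged 1.87 per gene for the NP pair and 1.92 for the control pair, where counting error alone would give 1. The 11 markers of colon epithelium were all present, with summed levels of 7532 to 7579 CPM in NP samples and 7580 to 7611 CPM in control samples (CPM, counts scaled to a common library size). The defining markers PTPRC, CD3E, COL1A2, COL3A1 and PDGFRA of leukocytes and fibroblasts had no count in any sample. LYZ, listed as a leukocyte marker but also made in the intestine, was at 364.5 and 347.5 CPM in NP samples, against 333.2 and 327.9 CPM in control samples (edgeR, adjusted p = 0.0466), and passed in 3 of 15 other settings. With an offset for transcript length, the log2 fold change of LYZ was 0.067 (edgeR, adjusted p = 0.307). The part of these markers in the results was not tested.

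To show the sequences through which MTF1 is known to act, the core of the metal response element (TGCACNC or TGCGCNC, on both strands) was searched in RefSeq promoter windows of GRCh38.p14, which run from 250 bases before to 50 bases after a gene start. Of 35116 windows, 29.6% held at least 1 core, 8.6% at least 2 and 2.3% at least 3. The windows matched 5 of the metallothionein genes (MT1B, MT1H, MT1X, MT2A and MT4), and all 5 held 3 to 8 cores. For the SLC30A family, 11 windows of 9 genes were matched, of which 6 held a core and 3 held at least 2. For the SLC39A family, 19 windows of 12 genes were matched, of which 7 held 1 core and none held 2. The window of MTF1 itself held none. MT1A, MT1E, MT1F, MT1G, MT1M, MT3, SLC30A8, SLC39A4 and SLC39A14 had no window. No 2 cores overlapped in the 3 windows printed here, in which capitals mark the cores. MT2A and MT1H are shown because both held 8 cores, and only 0.0199% of all windows held that many, while MT2A was the most highly expressed metallothionein and MT1H was almost without counts. SLC30A1 is shown as the exporter known to respond to MTF1, and both of its cores lie on the opposite strand.
MT2A (chr16:56608334-56608633, plus strand): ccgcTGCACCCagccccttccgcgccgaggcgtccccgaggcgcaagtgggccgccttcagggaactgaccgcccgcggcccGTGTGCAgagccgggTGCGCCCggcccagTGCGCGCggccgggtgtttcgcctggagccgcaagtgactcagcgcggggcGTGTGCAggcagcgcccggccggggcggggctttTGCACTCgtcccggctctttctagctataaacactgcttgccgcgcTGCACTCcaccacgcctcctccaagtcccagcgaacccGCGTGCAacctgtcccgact
MT1H (chr16:56669564-56669863, plus strand): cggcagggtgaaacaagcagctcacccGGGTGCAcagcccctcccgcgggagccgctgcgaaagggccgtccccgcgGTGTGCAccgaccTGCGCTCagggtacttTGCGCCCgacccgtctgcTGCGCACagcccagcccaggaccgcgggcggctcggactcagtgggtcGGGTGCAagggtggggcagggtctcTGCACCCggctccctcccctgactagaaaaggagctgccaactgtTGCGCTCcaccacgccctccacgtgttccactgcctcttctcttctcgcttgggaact
SLC30A1 (chr1:211579112-211579411, minus strand): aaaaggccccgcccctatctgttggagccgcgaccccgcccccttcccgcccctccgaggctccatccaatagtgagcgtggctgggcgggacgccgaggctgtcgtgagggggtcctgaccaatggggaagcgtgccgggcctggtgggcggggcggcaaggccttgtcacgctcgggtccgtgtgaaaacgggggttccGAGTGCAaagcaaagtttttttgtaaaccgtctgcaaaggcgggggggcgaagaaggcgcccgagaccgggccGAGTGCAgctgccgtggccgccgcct
A match is a run of letters and does not show that a factor binds there.

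Across all members, none differed between NP and control samples at an adjusted p under 0.05. Of the 36 members, 29 had at least 1 count and 22 had enough counts to be tested (edgeR's quasi-likelihood test, with Benjamini-Hochberg adjustment across 12616 genes). None of the 22 was called higher and none lower, where 2.35% of all tested genes were called higher and 1.7% lower. Before adjustment (p under 0.05), 2 members had higher values, MT1G and MT2A, and none had lower values, where the shares of all tested genes were 8.17% and 6.97%. DESeq2 also called no member and gave no adjusted p for 13 of the 22. MT1F, MT1G, MT2A and MTF1 were among these 13, so DESeq2 could not call them. It had 1 member, MT1G, at an unadjusted p under 0.05. Among the 22, both NP samples lay above both control samples in 4 members (MT1G, MT2A, SLC30A7 and SLC30A9) and below both in 1 (SLC39A6). In bulk RNA, a change in the share of cells that express a gene and a change in RNA per cell cannot be told apart. Such separation holds for 22.5% and 21.7% of all tested genes. The median log2 fold change was 0.035 over the 22 members, against 0.0015 over all genes tested.

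**Figure D1:**
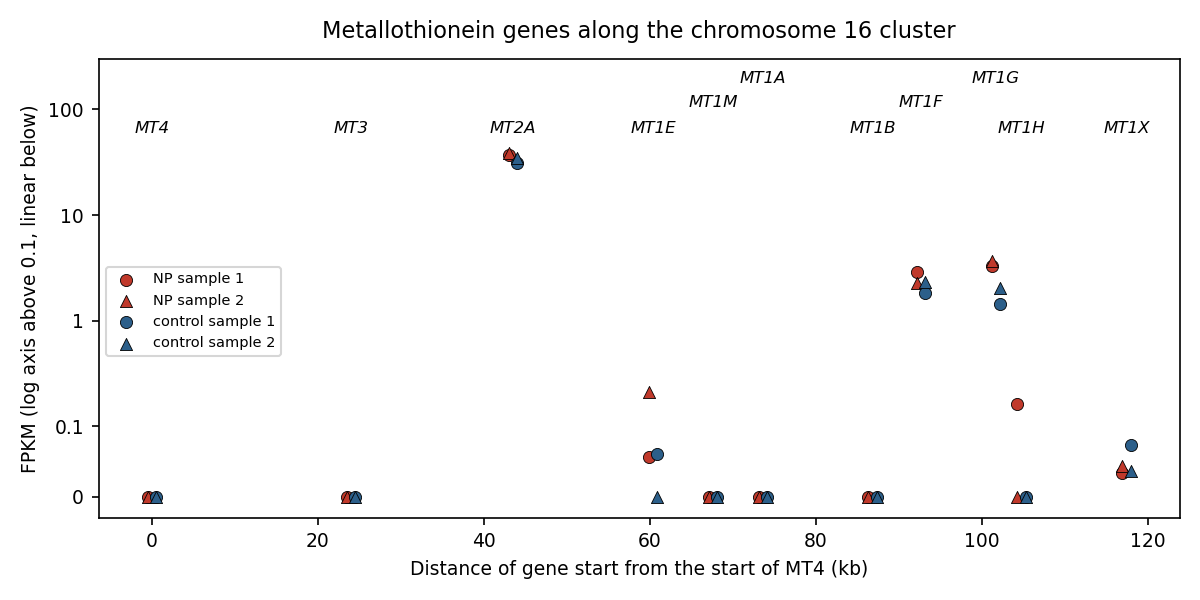
Level of each metallothionein gene in FPKM (y axis, logarithmic above 0.1) against the distance of its start from that of MT4 in kilobases (x axis), with NP samples in red and control samples in blue, set slightly apart. MT2A stands at 30.9 to 38.7 FPKM, MT1F and MT1G lie between 1.45 and 3.68 FPKM, and the other 8 genes stay at or under 0.213 FPKM.

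The metallothionein genes lie side by side on chromosome 16, and most of the cluster had no counts or very few in these cells. Levels between genes are compared in the deposited FPKM, which is per gene length. These lengths differ from those of principal transcripts, such as 1852 against 690 bases for MT1F and 4982 against 2174 bases for SLC39A4. Orders between genes, here and below, were read at the deposited lengths only. MT2A, the main metallothionein of many human tissues, lies from 56608584 to 56609497 on the plus strand (GRCh38). Its level was 36.9 and 38.7 FPKM in NP samples 1 and 2, against 30.9 and 34.4 FPKM in control samples 1 and 2, and 90.6% of all tested genes had a lower mean FPKM. MT1G, from 56666730 to 56668065, is the only member of the cluster on the minus strand. It was at 3.29 and 3.68 FPKM in NP samples, against 1.45 and 2.05 FPKM in control samples. MT1F, from 56657731 to 56660698, was at 2.92 and 2.26 FPKM in NP samples, against 1.83 and 2.32 FPKM in control samples. The ranges of MT1F and MT1G over the 4 samples overlapped, so their order is not resolved, while MT2A was far above both. MT2A held 80.6% and 83% of all metallothionein counts in NP samples, against 85.8% and 84.2% in control samples.

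The other 8 metallothionein genes had too few counts to be tested. MT1E had 1 and 3 counts in NP samples, against 1 and 0 in control samples, which is a ratio of 4.13 for NP over control (exact 95% interval for counting error 0.409 to 204). MT1X had 1 and 1 counts in NP samples, against 2 and 1 in control samples, a ratio of 0.689 (interval 0.0576 to 6.02). MT1H had 2 and 0 counts in NP samples, against none in control samples. No difference was detectable at this depth in these genes. MT1A, MT1B, MT1M, MT3 (known from brain) and MT4 (known from stratified epithelium) had no count in any of the 4 samples, which allows a level of up to 0.0486 CPM over all samples together (a floor of 3 counts). Intervals and floors cover counting error only.

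Metallothionein genes are near copies of each other, and their counts may therefore be shared or lost. In the principal transcript of MT1X, 45.1% of all runs of 50 bases also occur in a transcript of another gene of GENCODE release 29, AC026461.1 and MT1G among them. This share was 20.2% for MT1G, 20.4% for MT1H, 21.8% for MT1B, 4.9% for MT2A, 3.6% for MT1F and 5.3% for MT1E. The treatment of reads that match several genes is not given in the sources used here. Exons of MT1B and MT1X also overlap another gene on the same strand, over 31.6% and 18.1% of their bases. Levels of MT1X, MT1B, MT1H and MT1G, with the larger shares, are uncertain.

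MT1G showed the largest fold change of the tested members. Its counts were 42 and 37 in NP samples, against 17 and 24 in control samples. Scaled by library size, this is 2.48 and 2.76 CPM in NP samples, against 1.08 and 1.54 CPM in control samples. Both NP samples were above both control samples. The means were 2.62 ± 0.20 CPM in NP samples and 1.31 ± 0.32 CPM in control samples (SD, n = 2 each). The log2 fold change was 0.99 (standard error 0.35, 95% interval 0.30 to 1.68). In edgeR's quasi-likelihood test its unadjusted p was 0.0056 and its adjusted p was 0.096, which does not pass. The adjusted p was 0.049 with edgeR's exact test and 0.0498 with limma on log2(FPKM + 0.1), so 2 of the 14 other settings that gave an adjusted p called it higher. Over these 14 settings its adjusted p was 0.049 to 0.529. Without control replicate 1 its log2 fold change was 0.76, and without control replicate 2 it was 1.26.

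MT2A had 573 and 474 counts in NP samples, against 442 and 491 in control samples. In CPM it was at 33.9 and 35.4 in NP samples, against 28.1 and 31.4 in control samples. The groups did not overlap. The means were 34.6 ± 1.1 CPM in NP samples and 29.8 ± 2.3 CPM in control samples (SD, n = 2 each), and the log2 fold change was 0.22 (standard error 0.084, 95% interval 0.047 to 0.38). Its adjusted p was 0.16 in edgeR (unadjusted 0.013), and none of the 14 other settings that gave an adjusted p called it. Without control replicate 1 its log2 fold change was 0.14. MT1F was at 5.44 and 4.18 CPM in NP samples, against 3.37 and 4.29 CPM in control samples. Its groups overlapped, and its log2 fold change of 0.34 had a 95% interval from -0.11 to 0.79 (edgeR, adjusted p = 0.52). With 1 sample left out it was 0.13 to 0.52.

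The summed level of the 11 metallothionein genes was 42.0 and 42.7 CPM in NP samples, against 32.8 and 37.3 CPM in control samples. The means were 42.3 ± 0.46 and 35.1 ± 3.2 CPM in NP and control samples (SD, n = 2 each), 20.8% higher with NP. With 2 samples per group, an exact two-sided permutation test cannot give a p below 0.333, and no test was made of this sum.

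All 3 tested metallothioneins have short transcripts, of 786 nt (MT2A), 690 nt (MT1F) and 406 nt (MT1G) in the principal isoform. Short transcripts were called higher more often than long ones. Of the 616 tested genes with transcripts of up to 1000 nt, 9.74% were called higher, against 0.804% of the 6589 genes with transcripts over 3000 nt, and their median log2 fold change was 0.094. After an offset for transcript length, the log2 fold change was 0.12 for MT2A (edgeR, adjusted p = 0.563), 0.84 for MT1G (adjusted p = 0.218) and 0.24 for MT1F (adjusted p = 0.713).

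**Figure D2:**
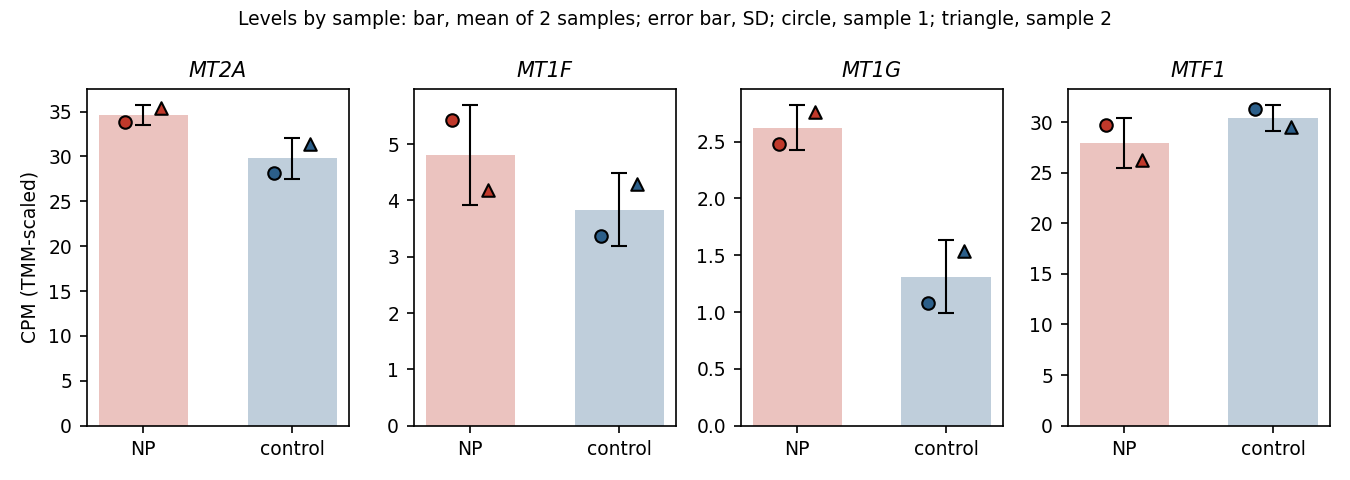
CPM (y axis, from 0) of MT2A, MT1F, MT1G and MTF1 in NP and control samples, with the mean of 2 samples as a bar, the SD as an error bar, sample 1 as a circle and sample 2 as a triangle. The NP points of MT2A (33.9 and 35.4) and of MT1G (2.48 and 2.76) are above their control points, and those of MT1F and MTF1 overlap with control.

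**Figure D3:**
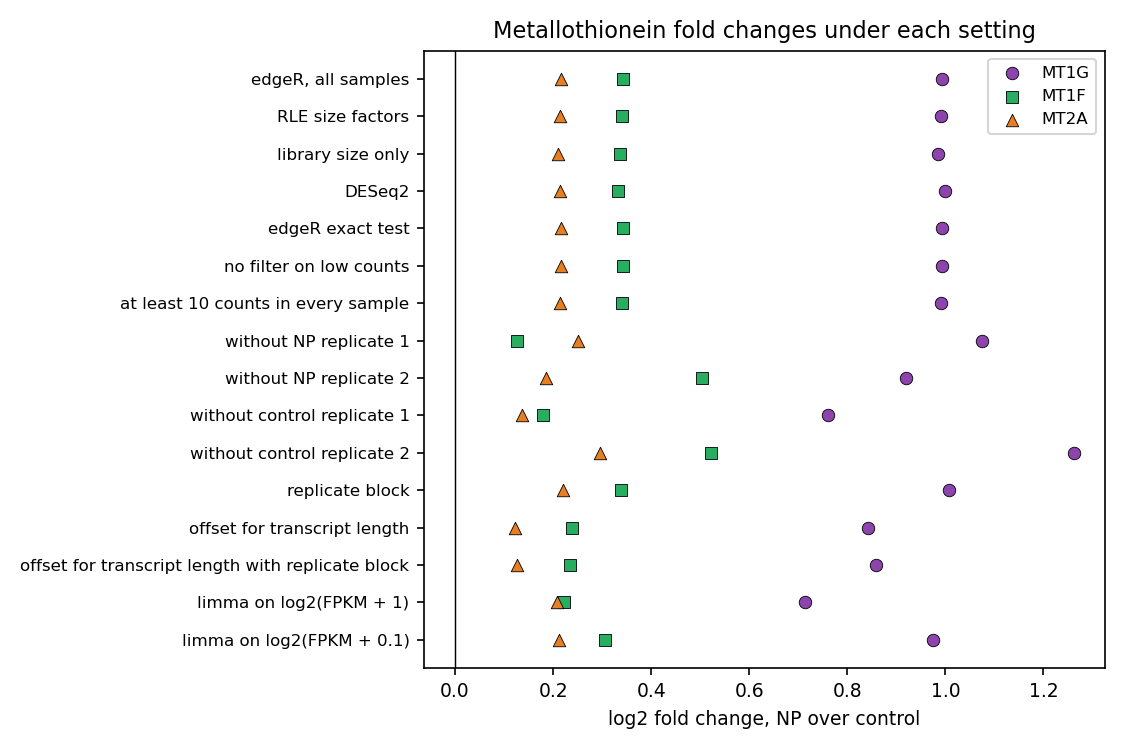
Log2 fold change of NP over control (x axis) for MT1G, MT1F and MT2A under edgeR with all samples and under each of 15 other settings (rows). All values are above 0: MT1G ranges from 0.71 to 1.26, MT1F from 0.13 to 0.52 and MT2A from 0.12 to 0.29.

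MTF1, the zinc sensor that drives metallothionein transcription, did not differ between the groups beyond its spread. It lies on chromosome 1 from 37809574 to 37859592 on the minus strand. It was at 29.7 and 26.2 CPM in NP samples, against 31.3 and 29.5 CPM in control samples. The groups overlapped. Its log2 fold change was -0.11 (standard error 0.088, 95% interval -0.29 to 0.062, adjusted p = 0.60 in edgeR). It was -0.21 without NP replicate 1 and -0.033 without NP replicate 2.

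The zinc transporters as a whole varied little between the groups. Of 24 transporter genes, 18 were tested, with 6 of the SLC30A family and 12 of the SLC39A family. None passed in edgeR at an adjusted or an unadjusted p under 0.05 (lowest unadjusted p = 0.124, adjusted p from 0.503 to 0.998). DESeq2 also called none. It gave no adjusted p for SLC30A4, SLC30A6, SLC30A7, SLC39A1, SLC39A3, SLC39A6, SLC39A8, SLC39A10 and SLC39A13, so it could not call these genes. In all 18 the 95% interval of the fold change held 0. For the 15 transporters with at least 300 counts in every sample, a minimum set after the counts were seen, these intervals lay between -16.9% and 16.8%. These are the outermost bounds over the 15 genes, and intervals of single genes were narrower, such as -3.85% to 8.52% for SLC39A7. The 3 tested transporters with fewer counts, SLC30A4, SLC39A1 and SLC39A3, had intervals as wide as -35.2% to 118%.

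**Figure D4:**
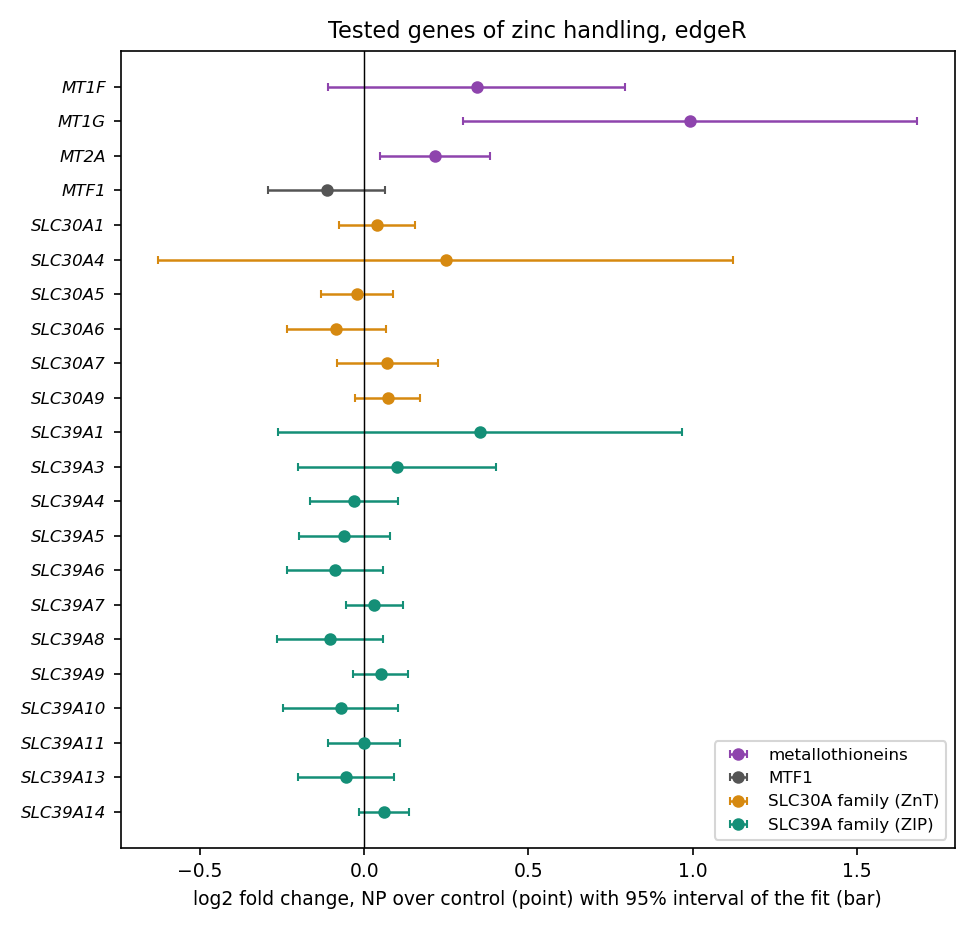
Log2 fold change of NP over control (x axis) with the 95% interval of the edgeR fit for the 22 tested members (rows), coloured by family. The intervals of MT1G (0.30 to 1.68) and MT2A (0.047 to 0.38) lie above 0 before adjustment, and those of MT1F, MTF1 and all 18 transporters include 0.

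Among the SLC30A genes, 5 carried nearly all of the expression. SLC30A1 (ZnT1), the exporter of the plasma membrane and a known MTF1 target, lies on chromosome 1 from 211571568 to 211579161 on the minus strand. It was at 71.9 and 80.1 CPM in NP samples, against 72.1 and 75.4 CPM in control samples. NP sample 1 was the lowest and NP sample 2 the highest of the 4. The log2 fold change was 0.039 (standard error 0.058, 95% interval -0.077 to 0.15, adjusted p = 0.83 in edgeR), and without NP replicate 2 it was -0.036. SLC30A5 and SLC30A6, which pair with each other to load zinc into enzymes of the secretory pathway, are described together. SLC30A5 was at 82.0 and 93.6 CPM in NP samples, against 90.8 and 86.7 CPM in control samples. SLC30A6 was at 42.9 and 46.2 CPM in NP samples, against 51.2 and 43.0 CPM in control samples. Both overlapped between the groups. SLC30A7 (ZnT7), a transporter of the Golgi, was at 39.0 and 39.1 CPM in NP samples, against 36.6 and 37.8 CPM in control samples. SLC30A9, a zinc transporter of mitochondria, was at 104.5 and 106.2 CPM in NP samples, against 104.2 and 96.1 CPM in control samples. In SLC30A7 and SLC30A9 both NP samples were above both control samples, but neither gene passed (edgeR, adjusted p = 0.74 and 0.54).

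In FPKM, SLC30A5 ranged from 14.9 to 17.1 over the 4 samples, SLC30A9 from 13.4 to 14.7, SLC30A1 from 12.1 to 13.6, SLC30A6 from 7.89 to 9.5 and SLC30A7 from 4.27 to 4.54. Of these neighbours only SLC30A9 and SLC30A1 overlapped. SLC30A4 was far lower, at 0.119 to 0.176 FPKM. SLC30A3, known from synaptic vesicles, had 2 and 2 counts in NP samples, against 3 and 5 in control samples, a ratio of 0.517 (exact 95% interval for counting error 0.114 to 1.93). SLC30A2 had no count in NP samples, against 1 and 0 in control samples. SLC30A8, the transporter of insulin granules, had 1 and 0 counts in NP samples, against 2 and 0 in control samples, a ratio of 0.517 (interval 0.00876 to 9.93). SLC30A10, which exports manganese, had none in any sample.

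The 3 highest transporters were all SLC39A genes. SLC39A7 (ZIP7), which releases zinc from the endoplasmic reticulum, had the highest level of all members. It was at 51.1 and 47.7 FPKM in NP samples, against 48.5 and 48.9 FPKM in control samples, and 93.5% of all tested genes had a lower mean FPKM. SLC39A14 (ZIP14), which carries manganese, iron and zinc, was at 31.3 and 29.9 FPKM in NP samples, against 28.8 and 30.3 FPKM in control samples. SLC39A9 was at 23.2 and 21.8 FPKM in NP samples, against 21.8 and 21.9 FPKM in control samples. At the deposited gene lengths, the ranges of these 3 genes over the 4 samples did not overlap. This order was then the same in every sample. Principal transcripts are shorter, at 4641 against 6937 bases for SLC39A14 and 3560 against 7138 bases for SLC39A9. The order at those lengths was not tested. NP sample 1 was the highest of the 4 in each of these 3 genes. Their log2 fold changes were 0.031, 0.060 and 0.051 (standard errors 0.044, 0.039 and 0.042, edgeR, adjusted p = 0.82, 0.50 and 0.64). With 1 sample left out they spanned -0.024 to 0.078 for SLC39A7, 0.020 to 0.097 for SLC39A14 and 0.00020 to 0.095 for SLC39A9.

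**Figure D5:**
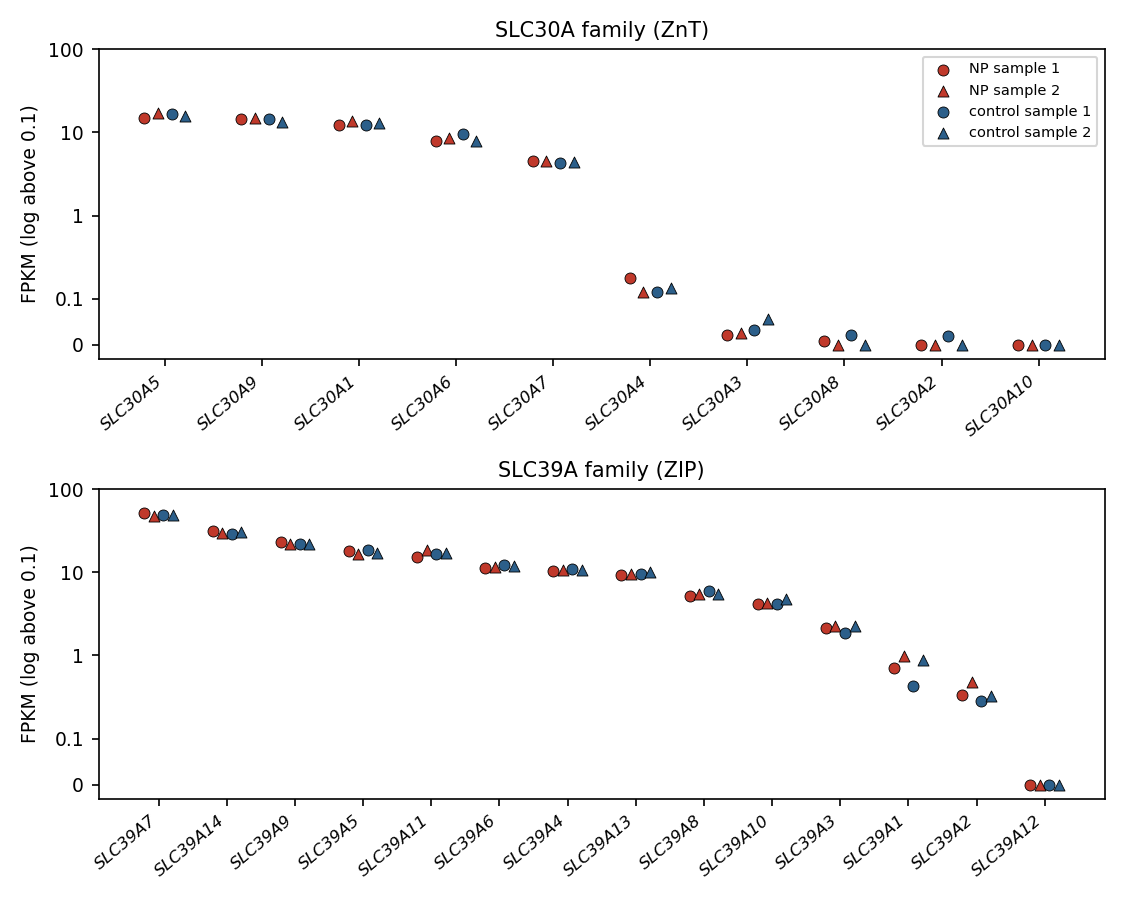
FPKM (y axis, logarithmic above 0.1) of the 10 SLC30A genes and the 14 SLC39A genes, ordered by mean level, with NP samples in red and control samples in blue. Levels run from SLC39A7 at 47.7 to 51.1 FPKM to SLC30A10 and SLC39A12 at 0. Among the 18 tested genes, the NP and control samples overlap in 15, NP lies above control in SLC30A7 and SLC30A9, and NP lies below control in SLC39A6.

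SLC39A5, a zinc importer of the basolateral membrane of the gut, was at 17.8 and 16.5 FPKM in NP samples, against 18.7 and 17.3 FPKM in control samples. SLC39A11 was at 15.4 and 18.4 FPKM in NP samples, against 16.8 and 16.9 FPKM in control samples. The NP samples of SLC39A11 were the lowest and the highest of the 4, and the log2 fold change was -0.00058 (95% interval -0.11 to 0.11, edgeR). The levels of SLC39A5 and SLC39A11 overlapped with each other. SLC39A4 (ZIP4), the importer of dietary zinc at the apical membrane of enterocytes, ranged from 10.4 to 10.9 FPKM over all samples. SLC39A6 ranged from 11.2 to 12.1 FPKM, SLC39A13 from 9.21 to 10.2 FPKM, SLC39A8 (ZIP8), which also carries manganese, from 5.13 to 6.01 FPKM and SLC39A10 from 4.15 to 4.8 FPKM. Of these, SLC39A5 and SLC39A11 were the only neighbours in level that overlapped. SLC39A6 was the tested member whose NP samples were both below the control samples, at 41.4 and 42.1 CPM in NP samples, against 44.5 and 44.4 CPM in control samples (log2 fold change -0.090, edgeR, adjusted p = 0.63).

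SLC39A3 was at 1.87 to 2.27 FPKM and SLC39A1 at 0.434 to 0.991 FPKM, and both levels are uncertain. Another gene of the table, AL358472.7, overlaps exons of SLC39A1 on the same strand, and 71.3% of the runs of 50 bases in the principal transcript of SLC39A1 also occur in another gene. AL358472.7 is listed at 0 counts in all 4 samples. SLC39A3 shares 26.6% of its runs with another gene, AC006538.2, which is also listed at 0 in all samples. SLC39A1 had 41 and 45 counts in NP samples, against 23 and 47 in control samples. Its log2 fold change of 0.35 (edgeR, adjusted p = 0.66) became -0.077 without control replicate 1. SLC39A2 had 9 and 10 counts in NP samples, against 7 and 8 in control samples, a ratio of 1.31 (exact 95% interval for counting error 0.63 to 2.77), and its level overlapped that of SLC39A1. SLC39A12 had no count.

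Other genes of metal handling were counted from lists drawn up by function. Over all tested genes, 2.35% were called higher and 1.7% lower. Of 10 tested copper genes, 1 rose in edgeR and none fell. This was SLC31A1 (CTR1), the copper importer, with 410.9 and 409.8 CPM in NP samples, against 370.6 and 369.0 CPM in control samples (log2 fold change 0.15, standard error 0.032, adjusted p = 0.00115). It was called in 13 of 15 other settings, all 4 that left out a sample among them. Of 11 tested iron genes, 1 rose and none fell. FTH1, the heavy chain of the iron store ferritin, was at 1357 and 1449 CPM in NP samples, against 1268 and 1363 CPM in control samples, and these ranges overlapped. It had a log2 fold change of 0.092 (edgeR, adjusted p = 0.045) and was called in 4 of 15 other settings. With the offset for transcript length, the log2 fold change of FTH1 was 0.035 (edgeR, adjusted p = 0.568). Its log2 fold change was 0.040 without control replicate 1 and 0.045 without NP replicate 2, where it did not pass, and 0.14 without either of the other samples, where it passed. Of 12 tested genes that respond to electrophiles or heavy metals, 1 rose and none fell. GCLM, a subunit of the enzyme that starts glutathione synthesis, was at 22.1 and 21.96 CPM in NP samples, against 17.19 and 16.45 CPM in control samples. It had a log2 fold change of 0.39 (edgeR, adjusted p = 0.019) and was called in 8 of the 14 other settings that gave an adjusted p. With 1 sample left out its log2 fold change was 0.36 to 0.42, and it did not pass in any of these 4 fits. Of 7 genes listed as other zinc membrane proteins (TMEM163, TRPM7, MCOLN1, TMC6, TMC8, SLC11A1 and GPR39), none passed in edgeR or DESeq2. At an unadjusted p below 0.05 in edgeR, 3 copper genes (SLC31A1, COX17 and SOD1), 2 iron genes (FTH1 and SLC40A1) and 2 electrophile genes (GCLM and SRXN1) had higher values, and 1 gene of the last list, TMC6, had a lower value. The shares of all tested genes at this unadjusted threshold were 8.17% higher and 6.97% lower. SRXN1, which reduces oxidized peroxiredoxins, had 19 and 12 counts in NP samples, against 0 and 7 in control samples (log2 fold change 2.15, edgeR, adjusted p = 0.060). The median log2 fold change of these lists was 0.014, 0.034, 0.032 and 0.11 in this order, against 0.0015 over all genes tested.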

How the data were processed

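RNA of 2 NP-treated and 2 control samples of COLO205 cells was sequenced. The authors deposited unnormalized read counts per gene. HISAT2, HTSeq and the build GRCh38 are named in the submitters' processing notes. Tool versions, the strand setting and the annotation release were not stated. FPKM values, also deposited, equal the count divided by gene length and summed counts, within 5.1e-13%. Genes were filtered with filterByExpr (minimum count 10), scaled with TMM (factors 0.99631 to 1.0037) and tested for NP against control with edgeR's quasi-likelihood test (edgeR 4.0.16, R 4.3.3), without other terms and with Benjamini-Hochberg adjustment over the 12616 genes tested. Standard errors were taken as log2 fold change over root F, and intervals use the degrees of freedom of the fit. Steps were tested on simulated data.

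The members and gene lists were chosen with earlier results of these data known. Values per sample were given for metallothioneins with at least 10 counts in all, MTF1, SLC30A1, transporters at an unadjusted p under 0.05 and the 5 transporters of each family with the highest FPKM. Other members were summarised by range and count, and genes of other lists were named where they passed. TMC6, SRXN1, COX17, SOD1, SLC40A1, MT1E, MT1X, MT1H, SLC39A6 and other members in small counts were named after their values were seen. Alternatives were RLE factors, library size only, DESeq2 1.42.0, edgeR's exact test, other filters, each sample left out, the replicate number as a block, offsets for transcript length, and limma 3.58.1 on log2(FPKM + 1) and log2(FPKM + 0.1). GENCODE release 29 holds 99.63% of the gene identifiers. It gave transcript lengths (principal isoform), exon overlaps and shared runs of 50 bases.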

Additional observations from a re-analysis of the deposited data

How the results depend on the processing

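The count of 0 members called higher was 1 (MT1G) with edgeR's exact test and 1 (MT1G) with limma on log2(FPKM + 0.1), and 0 in the other 13 settings. The count of members called lower was 0 in all 15. For DESeq2 both counts leave out the 13 of 22 members without an adjusted p. MT1F, MT1G, MT2A and MTF1 are among those 13, so its 0 does not bear on them. Over all genes, 297 were called higher and 215 lower, against 109 and 72 with DESeq2, 45 and 16 with limma on log2(FPKM + 1), and 53 and 18 with limma on log2(FPKM + 0.1). Leaving out 1 sample gave 104 to 237 higher and 67 to 150 lower, with the lone sample of a group assumed to vary like the other group. For these shifts the cause was not tested.

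Of the 22 tested members, 12 kept their sign in every setting, and 16 of 330 values changed sign, none of them at an adjusted p under 0.05. With 1 sample left out, log2 fold changes spanned -0.036 to 0.12 for SLC30A1, -0.072 to 0.47 for SLC30A4, -0.11 to 0.077 for SLC30A5, -0.21 to 0.047 for SLC30A6, -0.077 to 0.96 for SLC39A1, -0.17 to 0.035 for SLC39A10, -0.12 to 0.13 for SLC39A11, -0.12 to 0.0028 for SLC39A13, -0.027 to 0.23 for SLC39A3 and -0.024 to 0.078 for SLC39A7. SLC39A11 was at 0.0024 with DESeq2, 0.00056 with the exact test, 0.00037 with no filter and 0.0010 with the replicate block. With the replicate number as a block, 372 genes were called higher and 280 lower, and 0 members were called. No label ties samples of equal number to a culture or day. The deviations of NP sample 1 and control sample 1 from their group means had a correlation of -0.015 over 9326 genes. This value cannot show whether samples of equal number shared a culture or day, which was not tested. The summed metallothionein CPM moved by less than 1 SD under other scalings. The 8 metallothioneins and 6 transporters below the count filter were not tested, and the cause of their low counts was not tested either.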

Other observations

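Metallothionein genes are also known targets of the glucocorticoid receptor. Of 8 tested target genes of this receptor, 1 was called higher in edgeR and none lower, against 2.35% and 1.7% of all genes tested. This was CEBPD, a C/EBP transcription factor, with 26.82 and 27.04 CPM in NP samples, against 17.8 and 21.5 CPM in control samples (log2 fold change 0.46, standard error 0.10, adjusted p = 0.00197 in edgeR). It was called in 11 of the 14 other settings that gave an adjusted p. DESeq2 gave none, with a log2 fold change of 0.45 and an unadjusted p of 0.00194. Without control replicate 1 the log2 fold change was 0.32 and did not pass. The median log2 fold change of the 8 genes was 0.071, against 0.0015 over all genes tested.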
